A study of Homo sapiens with 9 samples.

Results

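VLDLR encodes the very low density lipoprotein receptor, and its transcript level was followed here in HT-29, a widely used colon adenocarcinoma cell line of human origin. The gene was taken as the array rows that the platform's annotation names VLDLR, which gave 1 row, out of 14884 genes with a named row. Total RNA was hybridised to Affymetrix whole-transcript arrays (GeneChip 2.0 ST), with 9 arrays in 3 groups of 3. Untreated cells received the vehicle, and the other groups received rosemary extract, a source of polyphenols, or carnosic acid, one of the diterpenes that rosemary makes. All cells were grown with fetal calf serum in the medium and collected after 24 h. No dose is stated in the labels, and whether the treatments were matched in dose is unknown. Replicates are called biological in the series' design text, but no separate cultures or days are named, and p-values measure the spread between these arrays.

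The receptor belongs to the LDL receptor family. Several members of that family bind lipoproteins through cysteine-rich ligand-binding repeats. They enter the cell through clathrin-coated pits by way of a short motif in their cytoplasmic tail. The family list used below is wider and holds genes that are not lipoprotein receptors, such as LRP5. VLDLR takes up triglyceride-rich particles that carry apolipoprotein E, works beside lipoprotein lipase in heart, muscle and fat, and in the brain acts with LRP8 as a receptor for reelin. The ubiquitin ligase MYLIP (also called IDOL) marks it for degradation. Its transcription is known from other cells to respond to ATF4 in the PERK arm of the unfolded protein response, to PPARG, to hypoxia-inducible factors and to NRF2.

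The 250 bases before the annotated start of VLDLR are shown because they are the stretch where sites of those factors were looked for. The window is chr9:2621537-2621786 on the plus strand, from RefSeq on GRCh38.p14. Capitals mark every match of the motifs searched, on either strand.
VLDLR: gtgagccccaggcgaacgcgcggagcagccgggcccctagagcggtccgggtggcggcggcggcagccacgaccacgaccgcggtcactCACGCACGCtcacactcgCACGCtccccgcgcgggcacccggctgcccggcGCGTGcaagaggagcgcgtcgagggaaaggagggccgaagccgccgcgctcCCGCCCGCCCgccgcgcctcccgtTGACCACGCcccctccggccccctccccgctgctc
The window has a GC content of 78.8%, against a median of 58.0% over 35116 promoter windows. The antioxidant response core TGACNNNGC matched at bases -35 to -27 from the start on the plus strand, and 10.9% of all windows of this length held that motif. The hypoxia core GCGTG matched at 5 positions, of which the last, bases -31 to -27 on the minus strand, lies inside the antioxidant match (32.2% of windows held it). The SP1 box GGGCGG matched at 2 positions that overlap each other (42.6% of windows). The CARE core TGATGNAA, bound by ATF4, the ER stress element, the hypoxia core ACGTG, the PPAR direct repeat and the SREBP element had 0 matches. The CARE core was in 3.14% of all windows and in those of 6 of 21 ATF4 target genes that had a window. A match is a description of the letters, not a bound site.

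VLDLR was lowest in untreated cells, intermediate with carnosic acid and highest with rosemary extract. In untreated arrays the level, an RMA expression value on a log2 scale, was 4.87, 4.99 and 5.27. With carnosic acid it was 6.53, 6.53 and 6.48, and with rosemary extract 7.73, 7.90 and 7.54. The groups did not overlap: the lowest carnosic acid array lay 1.22 log2 units above the highest untreated array, and the lowest extract array lay 1.01 above the highest carnosic acid array.

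The group means were 5.04 ± 0.21 in untreated cells, 6.52 ± 0.030 with carnosic acid and 7.72 ± 0.18 with rosemary extract (log2, SD, n = 3 each). The extract mean was thus 2.68 log2 units, or 6.42-fold, above untreated. The carnosic acid mean was 1.48 units, or 2.78-fold, above untreated, and the extract mean was 1.21 units, or 2.31-fold, above carnosic acid. VLDLR was chosen for these levels, so the differences are a description and carry no test. Among 11163 genes tested, the difference ranked 13 from the top with the extract, 16 with carnosic acid and 25 between the treatments. Both treatments were compared with the same untreated arrays, so their differences from untreated are not independent. The same order of the 3 groups without overlap was found in 933 genes (8.36%).

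**Figure D1:**
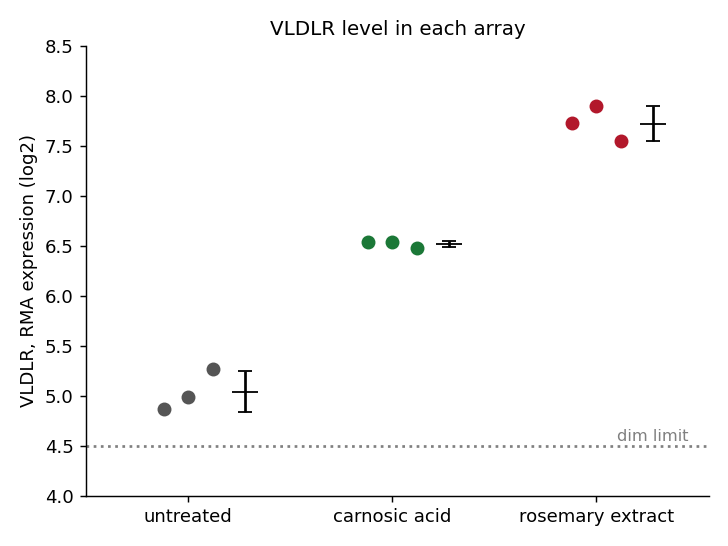
VLDLR level (RMA expression, log2) in each of the 9 arrays, with untreated, carnosic acid and rosemary extract arrays as points and the group mean ± SD as black bars. Untreated arrays lie between 4.87 and 5.27, above the dotted limit of 4.50 under which genes were left out as dim, and the 3 groups do not overlap.

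**Figure D2:**
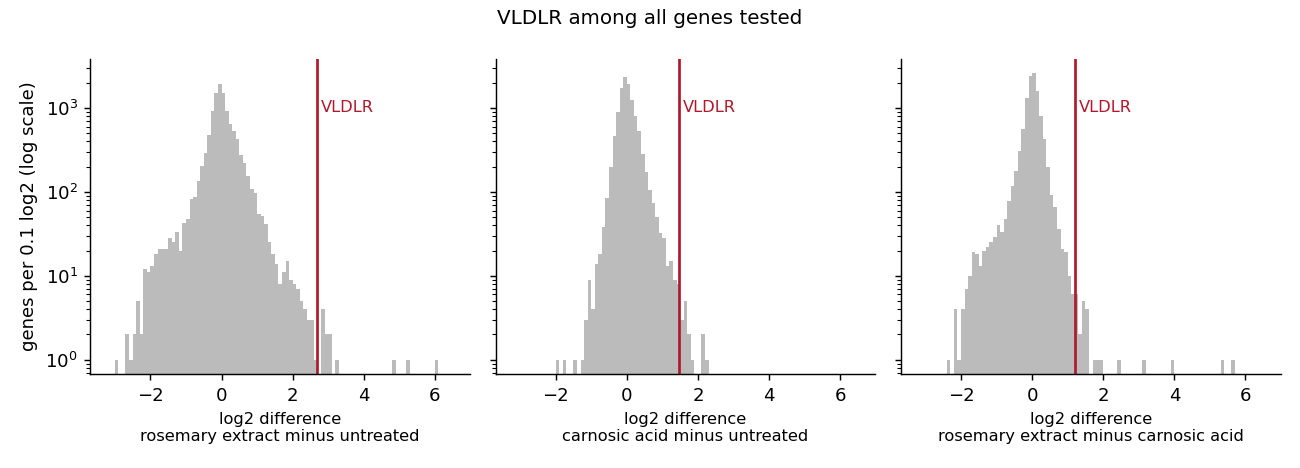
Number of genes (log scale) by log2 difference between groups for all 11163 genes tested, with VLDLR as a red line. VLDLR lies in the right tail of each panel, at 2.68, 1.48 and 1.21.

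The low untreated level limits how these values read. All untreated arrays were above the dim limit of 4.50, the lowest by 0.37, but RMA gives no detection call, so a low level cannot be told from background. The VLDLR SD was above the median over all genes in untreated cells (0.21 against 0.105) and with the extract (0.18 against 0.0890). The SD with carnosic acid was small beside the median over all genes in that group (0.0954). Carnosic acid replicates 1 and 2 had equal VLDLR values to 4 decimals. Equal values within the carnosic acid group were found in 14.8% of the genes for which that group had the middle mean and in 8.44% of the others. The part of such ties in the SD was not tested.

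The other LDL receptor family genes went different ways. Of 17 family genes besides VLDLR, 14 had a named row and 12 passed the filter on dim genes, while LRP1B and LRP2 lay under the limit and LRP8 and SORL1 had no named row here. With rosemary extract 3 of 12 were called higher and 1 lower by limma at an adjusted p under 0.05, beside 21.8% and 16.3% of all genes tested (38.1% in all). With carnosic acid 3 of 12 were called higher and 0 lower, beside 12.9% and 6.12% (19.0% in all). The groups did not overlap in 6 of the 12 with the extract, 5 with carnosic acid and 5 between the treatments, beside 46.7%, 32.8% and 31.8% of all genes. At an unadjusted p under 0.05, 0 of the 12 were lower with carnosic acid. The median difference of the family was 0.022 with the extract and 0.023 with carnosic acid, beside -0.018 and -0.011 over all genes.

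LRP1, a large scavenger receptor that shares apolipoprotein E and many other ligands with VLDLR, was 7.38, 6.83 and 7.02 in untreated arrays, 8.76, 8.66 and 8.56 with the extract and 8.49, 8.32 and 8.17 with carnosic acid. Every treated array exceeded every untreated one. LRP1 rose by 1.58 ± 0.13 with the extract (log2, SE; limma adjusted p = 1.95e-06) and by 1.25 ± 0.13 with carnosic acid (adjusted p = 7.41e-05). Between the treatments it differed by 0.33 ± 0.13, which did not pass (adjusted p = 0.108) but passed without untreated replicate 1 (0.0368).

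LRP10, a receptor that cycles between the trans-Golgi network and endosomes, rose by 1.01 ± 0.09 with the extract (limma adjusted p = 3.30e-06) and by 0.74 ± 0.09 with carnosic acid (adjusted p = 0.000183). LRP12 rose by 0.92 ± 0.11 with the extract (adjusted p = 3.23e-05) and by 0.42 ± 0.11 with carnosic acid (adjusted p = 0.0167). Its call with carnosic acid was lost when replicate 3 of that group (adjusted p = 0.0528) or untreated replicate 1 (0.0560) was left out. LRP12 was higher with the extract than with carnosic acid by 0.50 ± 0.11 (adjusted p = 0.00704), as VLDLR was. LRP10 was also higher with the extract than with carnosic acid, by 0.27 ± 0.09 without overlap, which did not pass (limma adjusted p = 0.0548). It passed with the 6 arrays compared (0.0178), with the dimmest 50% left out (0.0379) and without untreated replicate 1 (0.0188) or 3 (0.0344).

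LRP5, a Wnt co-receptor rather than a lipoprotein receptor, fell with the extract by 0.36 ± 0.06 (limma adjusted p = 0.000379) and was at -0.063 with carnosic acid (adjusted p = 0.495). Its relative LRP6 did not pass in either treatment (0.19 and 0.20, adjusted p = 0.114 and 0.135), and its call with the extract was gained without rosemary extract replicate 3 (0.0326). LRP3, LRP4, LRP11, LDLRAD1, LDLRAD2, LDLRAD3 and LDLRAD4 did not pass in any of the 3 comparisons fitted without a block. With the extract the 8 members that did not pass lay between -0.52 and 0.19, and with carnosic acid the 9 lay between -0.47 and 0.20. Between the treatments 1 of 12 family genes was called higher with the extract and 1 lower, beside 8.24% and 9.07% of all genes (17.3% in all), and without untreated replicate 1 the count called was 4.

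**Figure D3:**
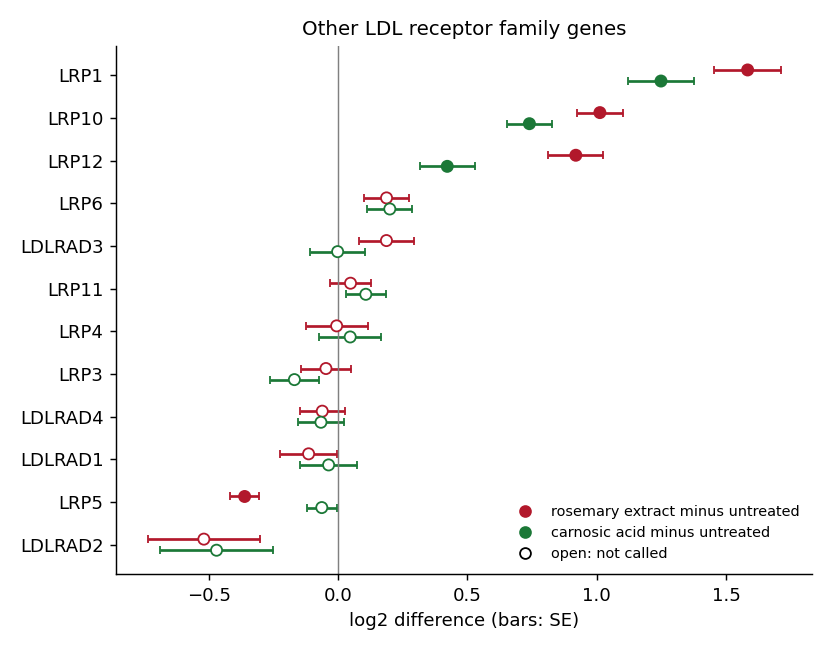
Log2 difference from untreated cells (points, with SE bars) for the 12 tested LDL receptor family genes other than VLDLR, in red for rosemary extract and green for carnosic acid, filled where called. LRP1, LRP10 and LRP12 are called higher with both treatments, and LRP5 is called lower with the extract.

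Among the receptor's ligands, THBS1 and CLU were called. Of 11 ligands 6 were tested, with 1 called higher and 1 lower with the extract and 1 higher and 0 lower with carnosic acid, beside 38.1% and 19.0% of all genes called, so these counts are near the background. At an unadjusted p under 0.05, 0 of the 6 were lower with carnosic acid. CLU, the apolipoprotein clusterin, rose with the extract by 0.76 ± 0.16 (log2, SE; limma adjusted p = 0.00300) and was at 0.20 with carnosic acid (adjusted p = 0.450). THBS1, the matrix protein thrombospondin, went opposite ways: it was 8.47, 8.29 and 8.59 in untreated arrays, 8.25, 8.18 and 8.18 with the extract and 8.78, 8.76 and 8.84 with carnosic acid. Carnosic acid arrays were the highest and extract arrays the lowest, without overlap. THBS1 rose with carnosic acid by 0.35 ± 0.07 (adjusted p = 0.00751), fell with the extract by 0.25 ± 0.07 (adjusted p = 0.0219) and was lower with the extract than with carnosic acid by a log2 difference of -0.59 ± 0.07 (adjusted p = 0.000221). The fall with the extract was lost without untreated replicate 1 (0.0613) or 3 (0.0788), without rosemary extract replicate 2 (0.0730) or 3 (0.0572) and under median centring (0.0596), and 1 ligand was then called. Without untreated replicate 3, 2 ligands were called with carnosic acid. RELN, APOE, TFPI and the receptor's chaperone LRPAP1 did not pass in any comparison, and LPL and APOB lay under the dim limit.

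In the lipoprotein lipase system and other uptake routes 7 of 19 genes were tested, and 1 was called, lower with both treatments, beside 16.3% and 6.12% of all genes called lower. This was HSPG2, the heparan sulfate proteoglycan perlecan, which fell by 1.05 ± 0.08 with the extract (limma adjusted p = 7.76e-07) and by 0.39 ± 0.08 with carnosic acid (adjusted p = 0.00404). ANGPTL4, an inhibitor of lipoprotein lipase, GPIHBP1, APOA5, APOC3, ANGPTL8 and the proteoglycan SDC1 did not pass with either treatment. CD36, MSR1 and OLR1, receptors for modified lipoproteins and fatty acids, lay under the dim limit. The count called was 2 without rosemary extract replicate 1 for the extract, and for carnosic acid it was 2 when its replicate 2 or untreated replicate 3 was left out.

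Genes that fold, traffic and remove receptors of this family included ADAM17 and FURIN, which rose with both treatments. Of 33 genes 20 were tested, and 10 were called higher and 2 lower with the extract, and 5 higher and 1 lower with carnosic acid. Over all genes the shares higher and lower were 21.8% and 16.3% with the extract and 12.9% and 6.12% with carnosic acid. ADAM17, a protease that sheds membrane proteins, rose by 0.94 ± 0.10 with the extract (limma adjusted p = 1.75e-05) and by 0.51 ± 0.10 with carnosic acid (adjusted p = 0.00436). FURIN, a convertase that processes LRP1, rose by 0.81 and 0.64. USP8, a deubiquitinase of endosomes, rose by 0.59 with the extract, and the endosomal sorting gene HGS rose by 0.50 with the extract and 0.51 with carnosic acid. VPS35, the core of the retromer that returns cargo from endosomes, fell by 0.27 with the extract and by 0.21 with carnosic acid.

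MYLIP, the ligase that degrades VLDLR, was 7.50, 7.39 and 7.61 in untreated arrays, 7.37, 7.05 and 7.22 with the extract and 7.59, 7.69 and 7.80 with carnosic acid. The extract arrays were the lowest, and carnosic acid arrays overlapped untreated ones. MYLIP fell with the extract by 0.29 ± 0.10 (limma adjusted p = 0.0313) and was at 0.19 with carnosic acid (adjusted p = 0.194). It was lower with the extract than with carnosic acid by a log2 difference of -0.48 ± 0.10 (adjusted p = 0.00437). The fall against untreated cells was lost without untreated replicate 1 (0.0710) or 3 (0.108), without rosemary extract replicate 2 (0.138) or 3 (0.0629) and under median centring (0.0601).

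Reelin signalling, the pathway VLDLR serves in neurons, held 12 tested genes of 20. With the extract 5 were called higher and 2 lower, beside 21.8% and 16.3% of all genes. With carnosic acid 3 were called higher and 1 lower, beside 12.9% and 6.12%. SOCS7, an adaptor that helps remove DAB1, rose by 0.87 ± 0.07 with the extract (limma adjusted p = 1.65e-06) and by 0.55 ± 0.07 with carnosic acid (adjusted p = 0.000291). RAPGEF1, an exchange factor for RAP1, rose by 0.69 with the extract, and GSK3B by 0.44. The members called lower with the extract were CRKL (-0.24, limma adjusted p = 0.00466) and AKT1 (-0.22, 0.0300). MAPK8IP1 was the member called lower with carnosic acid (-0.46, limma adjusted p = 0.0122). DAB1, the adaptor that binds the receptor's tail, lay under the dim limit. With carnosic acid, 2 were called when its replicate 1 or its replicate 2 was left out, and also without untreated replicate 2.

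In the list of transcription factors, 8 of 12 tested members were called higher and 1 lower with the extract (all genes 21.8% and 16.3%). With carnosic acid 6 were called higher and 1 lower (all genes 12.9% and 6.12%). The list is wider than the factors named above as acting on VLDLR. It also holds DDIT3, ATF6, PPARA, PPARD, SP1, SREBF1 and SREBF2, among others, and a link of these to VLDLR was not tested. Without rosemary extract replicate 1 the count called with the extract was 5 in all. EPAS1, which encodes the hypoxia-inducible factor HIF-2 alpha, was 7.15, 6.89 and 7.03 in untreated arrays, 9.45, 9.25 and 9.10 with the extract and 8.79, 8.72 and 8.58 with carnosic acid. It had the same order of groups as VLDLR, with 0.57 ± 0.10 between the treatments (log2, SE; limma adjusted p = 0.00196). PPARD rose by 0.80 ± 0.06 with the extract (adjusted p = 8.41e-07) and by 0.45 ± 0.06 with carnosic acid (adjusted p = 0.000307).

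PPARG, the factor that induces VLDLR in fat cells, moved the other way. It was 9.16, 9.29 and 9.38 in untreated arrays, 8.17, 8.13 and 8.09 with the extract and 8.59, 8.64 and 8.87 with carnosic acid. Its groups were ordered opposite to those of VLDLR and did not overlap. PPARG fell by 1.14 ± 0.08 with the extract (log2, SE; limma adjusted p = 7.23e-07) and by 0.57 ± 0.08 with carnosic acid (adjusted p = 0.000574). NFE2L2, which encodes NRF2, did not pass (-0.023 and -0.064, adjusted p = 0.812 and 0.520), and its sign with the extract turned under median centring (0.0070). ATF4 was at 0.21 with the extract (adjusted p = 0.0169, lost when rosemary extract replicate 1 or untreated replicate 3 was left out, and under cyclic loess) and at -0.12 with carnosic acid (adjusted p = 0.188). HIF1A and RXRA had no named row here. These are transcript levels, and the activity of the factors was not measured.

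Target genes of the same factors were set beside VLDLR. Of 14 tested ATF4 targets 9 were called higher and 0 lower with the extract, with a median difference of 1.23, and 8 were called higher and 0 lower with carnosic acid, with a median of 0.42. Over all genes 21.8% and 12.9% were called higher. With all 9 arrays 1 target, STC2, was lower with carnosic acid at an unadjusted p under 0.05. The count called with carnosic acid was 5 without its replicate 1. ASNS, asparagine synthetase, was 7.11 ± 0.06 in untreated cells, 8.23 ± 0.13 with carnosic acid and 9.23 ± 0.06 with the extract (log2, SD, n = 3). SESN2, a stress-induced inhibitor of mTORC1, was 6.38 ± 0.19, 6.83 ± 0.09 and 8.41 ± 0.26 in that order. GDF15, a stress cytokine, was 9.54 ± 0.13, 9.51 ± 0.34 and 10.77 ± 0.13, and did not pass with carnosic acid (limma adjusted p = 0.918). The pseudokinase gene TRIB3 was 6.92 ± 0.09, 7.50 ± 0.03 and 8.73 ± 0.34. DDIT3, which encodes CHOP, was 5.18 ± 0.17, 5.65 ± 0.22 and 6.42 ± 0.12. Between the treatments 8 of 14 ATF4 targets were called higher with the extract and 0 lower, beside 8.24% and 9.07% of all genes.

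All 7 tested NRF2 targets of 15 were called higher with the extract (median 1.16) and with carnosic acid (median 0.84), and 6 were higher with the extract than with carnosic acid, beside 21.8%, 12.9% and 8.24% of all genes called higher. When an array was left out, 5 to 7 were called with carnosic acid and 5 to 6 between the treatments. SRXN1, the sulfiredoxin that repairs peroxiredoxins, was 8.45 ± 0.10 in untreated cells, 9.87 ± 0.15 with carnosic acid and 10.86 ± 0.10 with the extract (log2, SD, n = 3). HMOX1, heme oxygenase, was 7.32 ± 0.12, 8.29 ± 0.12 and 10.28 ± 0.12 in the same order of groups. Of 8 tested HIF targets 5 were called higher and 1 lower with the extract, and 3 higher and 0 lower with carnosic acid, beside 21.8% and 16.3% and 12.9% and 6.12% of all genes. NDRG1, a stress-responsive gene, was 6.06 ± 0.06, 7.26 ± 0.32 and 8.64 ± 0.11 in that order, while the glycolytic enzyme HK2 fell with the extract by 0.54 (limma adjusted p = 0.000591).

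Of 5 tested PPAR targets 2 were called higher and 0 lower with each treatment (at an unadjusted p under 0.05, 0 were lower with the extract and 1 with carnosic acid). Over all genes 21.8% and 12.9% were called higher. PLIN2, which coats lipid droplets, rose by 1.18 ± 0.14 with the extract (limma adjusted p = 4.44e-05) and by 0.59 ± 0.14 with carnosic acid (adjusted p = 0.0128, lost without untreated replicate 1, which left 1 member called). Its carnosic acid arrays were all 6.26. SREBP2 is the main activator of cholesterol synthesis genes. Of 8 tested SREBP2 targets 6 were called higher and 1 lower with the extract, and 6 higher and 0 lower with carnosic acid, beside 21.8% and 16.3% and 12.9% and 6.12% of all genes. Between the treatments 0 were called higher with the extract and 4 lower, beside 8.24% and 9.07%, a count that was 2 without rosemary extract replicate 2 or 3 or carnosic acid replicate 1. SQLE, squalene epoxidase, was 10.20 ± 0.10 in untreated cells, 10.78 ± 0.09 with carnosic acid and 10.45 ± 0.08 with the extract (log2, SD, n = 3).

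**Figure D4:**
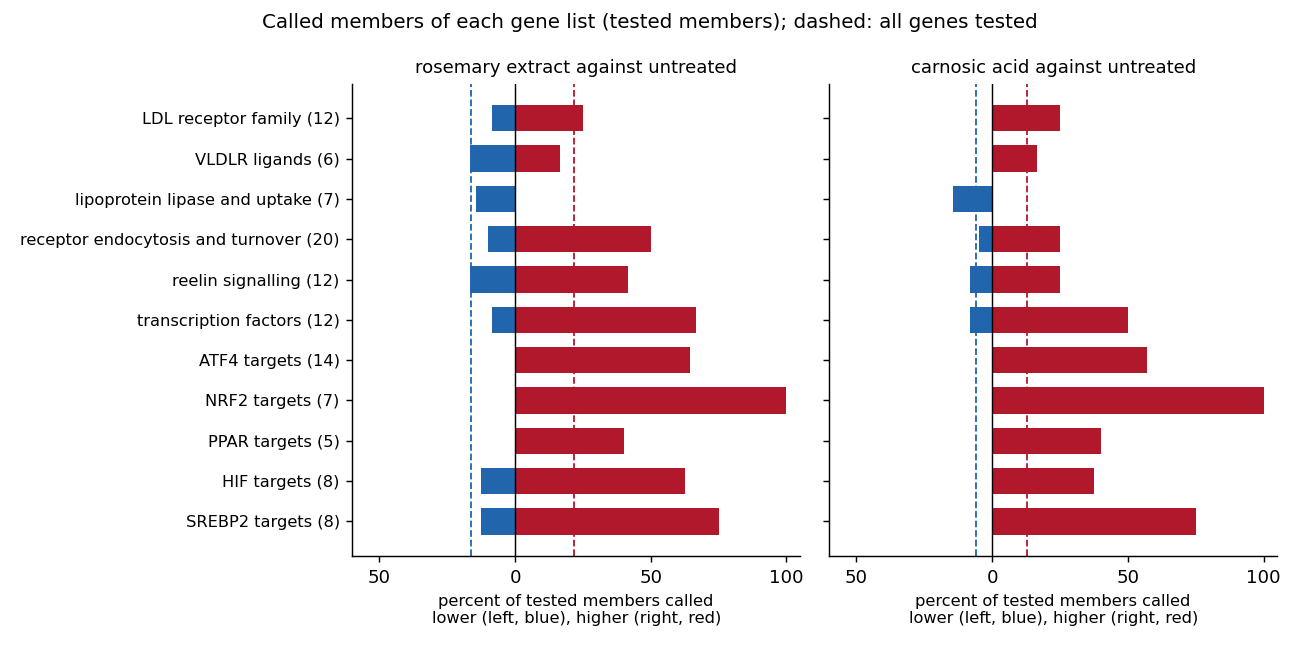
Percent of tested members called higher (red, right) or lower (blue, left) in each gene list, with the number of tested members in brackets, for rosemary extract and carnosic acid against untreated cells. Dashed lines give the shares over all genes tested, 21.8% and 16.3% for the extract and 12.9% and 6.12% for carnosic acid.

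Among the genes on either side of VLDLR, 1 of 5 tested was called with the extract and 0 with carnosic acid, beside 38.1% and 19.0% of all genes (0 of the 5 had an unadjusted p under 0.05 with carnosic acid by limma). Of its 5 nearest protein-coding neighbours on each side in the RefSeq gene table, KANK1, DMRT1, DMRT3, PUM3 and GLIS3 were tested, DMRT2 lay under the dim limit, and SMARCA2, KCNV2, RFX3 and SLC1A1 had no named row. PUM3, a ribosome assembly factor, fell with the extract by 0.28 (limma adjusted p = 0.0300), a call lost without untreated replicate 1 (0.0599) or 3 (0.107), without rosemary extract replicate 1 (0.0710), 2 (0.0728) or 3 (0.0734) and under median centring (0.0673). The others did not pass in any comparison. The long noncoding gene VLDLR-AS1 is named as antisense to VLDLR and overlaps its first 587 bases in the RefSeq table. Its brighter row was 4.79 ± 0.07 in untreated cells, 4.76 ± 0.10 with the extract and 4.66 ± 0.02 with carnosic acid (log2, SD, n = 3) and did not pass (-0.034 and -0.13, limma adjusted p = 0.785 and 0.306). With the mean of its 2 rows, VLDLR-AS1 turned to 0.25 with the extract and passed (adjusted p = 0.0210).

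The genes whose profile lay nearest to that of VLDLR were found by the Euclidean distance over the 9 arrays between log2 values minus the untreated mean. The 10 nearest were SRXN1 (distance 0.56), the lysosomal protease CTSL (0.64), CPEB4 (0.66), the histone demethylase KDM7A (0.68), NDRG1 (0.71), the lysosomal trafficking regulator LYST (0.74), GPAT3 (0.74), the actin nucleator SPIRE1 (0.75), the Notch ligand JAG1 (0.79) and APCDD1L-DT (0.84). GPAT3 makes glycerolipids, and CPEB4 regulates translation. Their differences from untreated cells lay between 2.34 and 3.01 with the extract and between 1.20 and 1.73 with carnosic acid. By Pearson's r, which ignores the size of the change, ZPR1 (r = 0.999) and CREB3L2 (0.996), an ER-anchored transcription factor, came first, with rises of 0.76 and 1.19 with the extract, and 2 of the 10 were shared, SRXN1 and CTSL. These genes were picked for their likeness on the same arrays, so it carries no test.

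**Figure D5:**
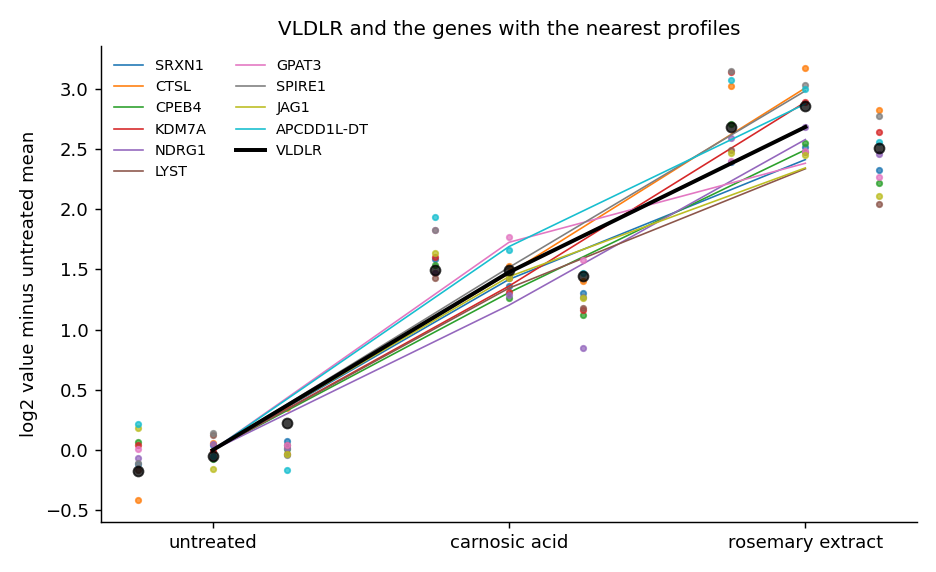
Log2 value minus the gene's untreated mean in each array (points) and as group means (lines) for VLDLR in black and the 10 genes with the nearest profiles in colour. All 11 genes rise from untreated through carnosic acid to rosemary extract, and VLDLR lies within their range. The 10 genes were picked for this likeness on the same arrays, so it is a description.

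Markers were read to check the label of the cells. All 10 colon epithelial markers with a named row passed the dim filter, among them EPCAM (11.36 in untreated cells) and KRT18 (12.59), both called lower with each treatment (EPCAM by limma adjusted p = 0.00377 and 0.00517). Of the 10, 2 were called higher and 4 lower with the extract, and 3 higher and 4 lower with carnosic acid, beside 21.8% and 16.3% and 12.9% and 6.12% of all genes. CEACAM5 rose by 2.82 and 2.22 and KRT20 by 0.77 and 0.88, while TSPAN8 fell by 2.14 and 1.23 and VIL1 by 1.29 and 0.35. The mean of the list over an array lay between 8.79 and 8.93 in untreated cells, 8.70 and 8.76 with the extract and 8.90 and 8.99 with carnosic acid. Of 4 muscle and adipocyte markers with a named row, cell types in which VLDLR is abundant, LEP lay under the dim limit and 0 of the 3 tested were called by limma in any comparison, with 1, MYOD1, at an unadjusted p under 0.05. Of 7 fibroblast, endothelial and leukocyte markers with a named row, DCN, LUM, PECAM1 and KDR lay under the limit. CD68, a lysosomal membrane protein used as a macrophage marker, rose by 1.89 with the extract and 1.24 with carnosic acid. The other tested members did not pass: the monocyte marker CD14 was at -0.31 and -0.27, and the endothelial VWF at -0.053 and -0.088. That list's mean lay between 4.72 and 4.76 in untreated cells, 4.87 and 4.93 with the extract and 4.72 and 4.93 with carnosic acid, and the part of these lists in the VLDLR levels was not tested. In bulk RNA, more cells with the transcript and more transcript per cell cannot be told apart.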

How the data were processed

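The deposited table holds the authors' RMA expression values on a log2 scale for 53617 rows, computed in R by oligo, per the labels' descriptions; the log2 scale was read from the values. The labels name no version or annotation. RMA brings arrays to a common distribution and compresses large fold changes. Array medians lay between 4.82 and 4.90, and arrays of a group correlated at 0.991 or above. Rows were named through the platform annotation: 16098 had 1 symbol, 0 several and 37519 none. Each gene kept its brightest row, and 3721 genes under 4.50, the lowest 25% by mean, were left out. All 9 arrays were fitted with limma 3.58.1 in R 4.3.3 (trend, 6 residual degrees of freedom, testing both directions). The p-values from limma were adjusted by Benjamini-Hochberg across 11163 genes, with calls under 0.05, and fits were tested on simulated data. VLDLR and the lists were chosen with earlier results of these data known. Named genes are VLDLR, its 10 nearest by distance and by r, all family and ligand rows, up to 6 members of each other list with the smallest p, a set of regulators whatever their values, and the chromosomal neighbours. GDF15, DMRT2, AKT1, MAPK8IP1 and the marker genes were named besides. With 3 arrays in a group, their number limits precision. Same-numbered arrays did not pair (correlations of deviations from -0.22 to 0.24). Alternatives were scaling, dim filter, row choice, all rows, 6 arrays, no trend, the replicate block and each array left out.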

Additional observations from a re-analysis of the deposited data

Results flagged for a closer look

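VLDLR-AS1, the noncoding gene that overlaps the start of VLDLR, has a dimmer row left out of the main fit, where each gene kept its brightest row. It entered the alternative that took the mean of a gene's rows. That row was 4.11, 4.06 and 3.90 in untreated arrays, 4.63, 4.41 and 4.65 with rosemary extract and 4.24 on all 3 carnosic acid arrays. The extract and carnosic acid means lay above untreated by 0.54 and 0.22 on the log2 scale, and the groups did not overlap. The untreated mean of 4.02 is under the dim limit of 4.50, and the brighter row did not show these differences. The labels give no strand or position of the probes, and signal of VLDLR and of VLDLR-AS1 could not be told apart.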

How the results depend on the processing

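The VLDLR differences kept their direction and moved by less than the replicate SD under every alternative run, with ranges of 2.60 to 2.80 (extract against untreated), 1.39 to 1.59 (carnosic acid against untreated) and 1.12 to 1.29 (between the treatments) when an array was left out. With every row of the array, 7676 rows were called with the extract. Fitting every row also gave 1 ligand with the extract, 2 reelin genes with carnosic acid and, between the treatments, 1 ligand, 2 turnover genes, 0 PPAR targets and 2 SREBP2 targets. With the dimmest 50% left out, 1 ligand was called with the extract and 1 between the treatments, and 2 uptake genes with carnosic acid. Median centring left 1 ligand with the extract. The 6-array fit called 4 family genes and 2 SREBP2 targets between the treatments, and 2 SREBP2 targets were called with no dim filter or no trend. By Pearson's r, 2 of the 10 nearest genes were shared. Signs turned for NFE2L2 with the extract (0.0070 with median centring, 0.014 without rosemary extract replicate 3, 0.0098 without untreated replicate 3, within a leave-one-out range of -0.044 to 0.014) and for VLDLR-AS1 (0.013 with cyclic loess and 0.25, then called at 0.0210, with the mean of its rows for the extract, 0.044 with that mean for carnosic acid). Leaving out an array gave 3490 to 4238 genes called with the extract, 1384 to 2123 with carnosic acid (lowest without carnosic acid replicate 1) and 1288 to 1964 between the treatments (lowest without rosemary extract replicate 2). With the extract it gave 1 to 2 ligands, 1 to 2 uptake genes and 5 to 9 transcription factors. With carnosic acid it gave 5 to 8 ATF4 targets, 1 to 2 PPAR targets, 1 to 2 ligands, 1 to 2 uptake genes and 2 to 5 reelin genes. It also gave 5 to 7 NRF2 targets, 4 to 8 turnover genes and 5 to 8 transcription factors with carnosic acid. Between the treatments it gave 2 to 4 family genes, 1 to 2 ligands, 2 to 4 turnover genes, 2 to 4 reelin genes, 0 to 1 PPAR targets and 2 to 4 SREBP2 targets. It left 6 to 10 of the nearest genes shared. Apart from the smaller fits, the cause was not tested. With the replicate number as a block, 4226, 2194 and 1947 genes were called, and same-numbered arrays did not deviate together. The block gained LRP1 between the treatments (limma adjusted p = 0.0268) and LDLRAD2 with the extract (0.0349). It lost USP2 between the treatments (0.0616, against 0.0388 without the block). That USP2 call was also lost with no dim filter (0.0529) and with every row of the array (0.118). It was lost in several leave-one-out fits too, such as without rosemary extract replicate 1 (0.158). VLDLR in untreated cells lay 0.54 above the dim limit, and whether this low level affected the size of its fold changes was not tested.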

Other observations

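By a rule chosen after the values were seen, 15 genes were higher by more than 1 log2 unit both from untreated to carnosic acid and from carnosic acid to rosemary extract. They were CTSL, SPIRE1, KDM7A, APCDD1L-DT, VLDLR, NDRG1, CPEB4, CBR3, LURAP1L, MAP1A, MIR22HG, C9orf72, HKDC1, LAT and UPP1. CTSL, which encodes the lysosomal protease cathepsin L, had the widest span of the 15, from 5.87 ± 0.39 through 7.33 ± 0.06 to 8.88 ± 0.18 (log2, SD, n = 3). CBR3, a carbonyl reductase, went from 5.47 ± 0.22 through 6.68 ± 0.07 to 7.80 ± 0.13, and UPP1, uridine phosphorylase, from 5.27 ± 0.06 through 6.28 ± 0.09 to 7.30 ± 0.11. C9orf72, a regulator of autophagy and endosomal traffic, went from 5.75 ± 0.18 through 6.80 ± 0.21 to 7.95 ± 0.35.

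In all 10 genes nearest to VLDLR, replicate 3 was the lowest extract array and replicate 3 was the lowest carnosic acid array, as in VLDLR. Over all 11163 genes these arrays were the lowest of their group in 38.6% and 26.2%. The 10 genes were chosen on the same arrays, so this is a description.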
